A study of Mus musculus with 6 samples.

Results

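The genes described are 10 of the 28500 in the expression table, namely 7 immediate early genes (Fos, Fosb, Jun, Junb, Egr1, Atf3 and Ier2) and 3 Krüppel-like factor genes (Klf2, Klf4 and Klf6). They were chosen by name, all 10 were found once each, and all 10 passed the filter on low counts that kept 17900 genes. The libraries were made from messenger RNA of colon epithelial cells of 6 mice, labelled as males of 8 weeks that received no colitis-inducing agent and no drug. The WT group held 3 Ube2fflox mice, and the KO group 3 Ube2fΔIEC mice, in which Ube2f is deleted in intestinal epithelial cells. Ube2f encodes an E2 enzyme that passes the ubiquitin-like protein NEDD8 to cullins. The means of deletion is not given in the labels, and no group with that means alone was analysed here, so its effect and that of losing Ube2f cannot be told apart. Cells were freed from colon pieces during 30 min at 37 °C in 5 mM EDTA and passed through a 40 μm strainer before RNA was taken.

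Immediate early genes are transcribed within minutes of a stimulus, from factors already present in the cell, and need no new protein. Serum response factor with its ternary complex partners, CREB and ATF proteins, and MEF2 factors, activated through the MAP kinases, are their best known inducers. FOS and JUN family proteins pair to form the transcription factor AP-1, and KLF proteins bind CACCC and GC-rich elements. Release of cells from tissue at body temperature is known to induce these genes. In the gut, KLF4 marks differentiated cells and goblet cells, while KLF2 is best known from endothelium and resting lymphocytes.

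Promoter sequences were at hand for 8 of the 10 genes, from RefSeq on GRCm38.p6, each running from 250 bases before to 50 bases after the start. The 4 printed here were chosen because they carry the motifs discussed here and belong to the most abundant member of the set (Fos), to 2 others of high level (Jun and Atf3) and to the member with the largest difference between genotypes (Klf2). Capitals mark the TATA box (TATAAA), the ATF and CREB core site (TGACG), the EGR site (GCGGGGGCG) and the MEF2 motif (CTA and TAG around A or T bases), read on both strands. A site found on the other strand appears as its reverse complement. The windows are chr12:85473640-85473939 (plus strand) for Fos, chr4:95052173-95052472 (minus strand) for Jun, chr1:191183284-191183583 (minus strand) for Atf3 and chr8:72318812-72319111 (plus strand) for Klf2.
Fos: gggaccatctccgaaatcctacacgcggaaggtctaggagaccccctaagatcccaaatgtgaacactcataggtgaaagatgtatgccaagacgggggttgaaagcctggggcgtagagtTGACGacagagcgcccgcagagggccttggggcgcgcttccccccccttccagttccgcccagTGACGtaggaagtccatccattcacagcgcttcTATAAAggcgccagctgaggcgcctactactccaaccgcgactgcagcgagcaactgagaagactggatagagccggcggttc
Jun: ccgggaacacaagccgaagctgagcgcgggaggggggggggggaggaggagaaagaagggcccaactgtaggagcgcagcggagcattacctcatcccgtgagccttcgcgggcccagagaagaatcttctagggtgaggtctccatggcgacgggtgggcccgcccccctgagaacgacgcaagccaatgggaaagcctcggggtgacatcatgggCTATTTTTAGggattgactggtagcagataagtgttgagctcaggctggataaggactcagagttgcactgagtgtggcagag
Atf3: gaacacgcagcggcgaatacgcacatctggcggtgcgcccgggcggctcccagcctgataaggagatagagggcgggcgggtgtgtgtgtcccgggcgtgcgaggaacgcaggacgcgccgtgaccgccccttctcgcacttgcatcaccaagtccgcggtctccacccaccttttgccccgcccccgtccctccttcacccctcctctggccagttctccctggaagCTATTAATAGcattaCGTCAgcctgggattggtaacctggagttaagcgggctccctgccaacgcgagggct
Klf2: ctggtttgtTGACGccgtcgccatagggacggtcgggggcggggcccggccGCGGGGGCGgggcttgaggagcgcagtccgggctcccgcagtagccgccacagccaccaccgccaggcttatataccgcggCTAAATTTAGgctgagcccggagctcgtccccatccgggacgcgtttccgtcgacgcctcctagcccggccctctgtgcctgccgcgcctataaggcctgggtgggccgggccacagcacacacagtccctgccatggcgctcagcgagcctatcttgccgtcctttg
The MEF2 motif was present in 3 of the 8 windows (Atf3, Jun and Klf2) and in 0.557% of all 32851 promoter windows of that length. The ATF and CREB core site was present in 6 of 8 against 20.8% of all windows, and the EGR site in 3 of 8 (Klf4, Fosb and Klf2) against 2.91%. The TATA box was present in Fos and Junb, 2 of 8, against 13.6%. It lay at bases -33 to -28 from the start in Fos, but at bases 1 to 6 after the annotated start in Junb. The full CRE (TGACGTCA, which contains the core site, present in 1.79% of all windows), the AP-1 site (TGACTCA, 5.2%) and the CArG box (CC and GG around A or T bases, 1.63%) were found in 0 of 8. The KLF box (CACCC, not in capitals) was in 5 of 8 windows and in 57.5% of all. None of the marked motifs overlapped another in the 4 printed windows, and a match is a string of letters, not a bound site. A motif found in 0 of 8 had no exact match within these windows. Sites farther away or differing by a letter were not searched for, and Egr1 and Ier2 had no window.

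Library totals ran from 55971362 to 77524693 counts. Levels are CPM, counts scaled to a common library size with TMM factors, unless FPKM, which also divides by gene length, is named, and log2 fold changes are KO over WT with their standard error (SE). Of 17900 genes tested, 8 (0.0447%) passed an adjusted p of 0.05 (edgeR quasi-likelihood test, Benjamini-Hochberg over all genes), 4 (0.0223%) lower and 4 (0.0223%) higher in KO. Ube2f itself was at 36.1 ± 5.29 CPM in WT and 18.7 ± 2.02 CPM in KO (SD, n = 3 each), without overlap (log2 fold change -0.95, SE 0.13, edgeR quasi-likelihood adjusted p = 0.0923). DESeq2 called it (adjusted p = 9.32e-08). Of the edgeR alternatives, only the fit without WT replicate 1 did (quasi-likelihood adjusted p = 0.0461). KO replicate 1, labelled male, held 494.3 CPM of Xist, where no other library exceeded 1.33 CPM, and 0 counts of Ddx3y, Eif2s3y, Kdm5d and Uty, where 3 counts would be 0.0503 CPM. It goes against its label, and results are therefore also given without it. Epithelial markers were abundant, with Krt8 at 6081.8 to 7194.1 CPM and Epcam at 1140.6 to 1315.6 CPM. In bulk RNA, fewer cells of a type and less RNA per cell cannot be told apart.

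The immediate early genes stood among the most abundant messages of these cells in both genotypes. Ranked by mean FPKM among 16247 nuclear protein-coding genes, 6 of the 10 stood within the first 100 and 9 within the first 200. Fos, which encodes the inducible partner of JUN in AP-1, ranked 21 with 1252.0 FPKM, above the cytoskeletal actin gene Actb at rank 24 with 1019.7 FPKM. Atf3, a stress-induced member of the ATF family, ranked 30 (747.0 FPKM), Jun 32 (718.3 FPKM), Ier2 46 (517.2 FPKM), Egr1 55 (483.7 FPKM) and Junb 68 (382.7 FPKM). Klf6 (119), Fosb (131) and Klf4 (132) followed with 242.6, 224.5 and 223.5 FPKM. Klf2 stood apart at rank 2933 with 12.8 FPKM.

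**Figure D1:**
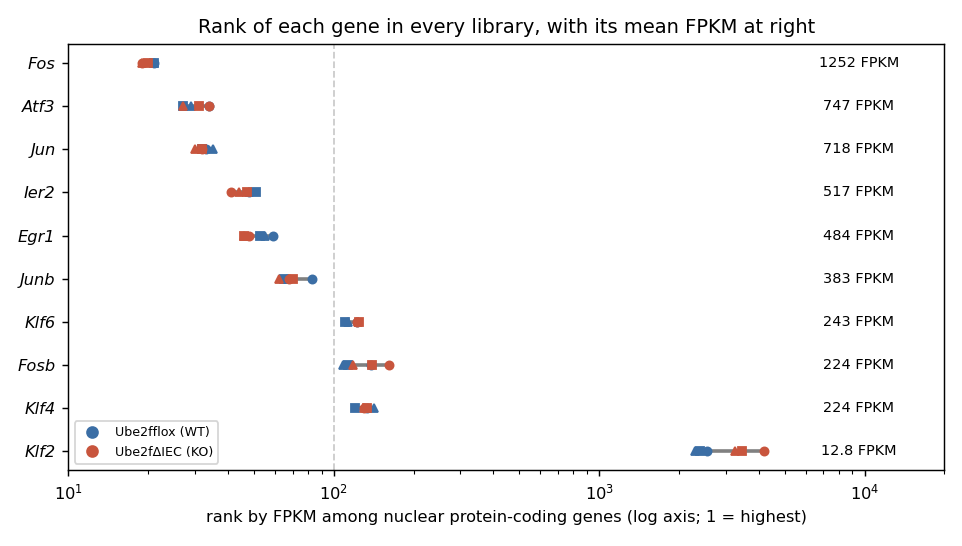
Rank of each of the 10 genes by FPKM among 16247 nuclear protein-coding genes (log axis, 1 is the highest) in every library, WT in blue and KO in red, circle, square and triangle for replicates 1, 2 and 3, with the mean FPKM of the 6 libraries at right. In the plot 6 genes lie left of the dashed line at rank 100, 3 just right of it, and Klf2 lies between rank 2295 and 4163.

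Fos stayed between rank 19 and 21 over the libraries and Jun between 30 and 35, while Fosb ranged from 108 to 162 and Klf2 from 2295 to 4163. Neighbours in the order were often not separated. Jun lay below Atf3 in the mean, yet its FPKM in WT replicate 1 (679.4) was above that of Atf3 (667.9) in the same library. Fosb and Klf4 differed in the mean by less than their spread over libraries. Together the 10 genes took 1.43, 1.55 and 1.39% of all counts in WT and 1.52, 1.57 and 1.71% in KO, replicates 1 to 3. Within groups the coefficient of variation was 2.67 to 13.2% in WT and 2.33 to 19.9% in KO, highest for Fosb in both.

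The comparison of KO with WT asks whether the deletion of Ube2f goes with another level of these genes in unchallenged epithelium. By the edgeR quasi-likelihood test 0 of 10 passed, against 0.0447% of all genes, and 1 of 10 (Klf2) had an unadjusted p under 0.05, against 8.18% of all genes. DESeq2 called 1 of 10, again Klf2, against 1.65% of genes. Of the log2 fold changes 4 were positive and 6 negative, and their median of -0.03 (-0.0827 to 0.0159 when 1 library was left out) compares with -0.000183 over all genes. Without KO replicate 1 they were 0.123 for Fos, 0.0139 for Jun, 0.0344 for Junb, -0.0492 for Atf3 and 0.0401 for Ier2. Klf4 and Klf6 were then at -0.017 and -0.126, and Fosb, Egr1 and Klf2 are given below. With library totals in place of TMM the median of all genes shifted to 0.15 and that of the 10 genes to 0.12, and Jun, Atf3, Klf4 and Klf6 turned positive. In CPM, 1 of the 10 genes (Egr1) lay above WT in every KO library, against 7.26% of all genes, and 2 (Klf2 and Klf6) lay below, against 6.9%. With library totals, 4 (Egr1, Jun, Junb and Ier2) lay above, against 20.3% of all genes, and 1 (Klf2) below, against 2.2%. The same genes separated in the deposited FPKM, where the shares over all genes were 20.2% and 2.12%.

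**Figure D2:**
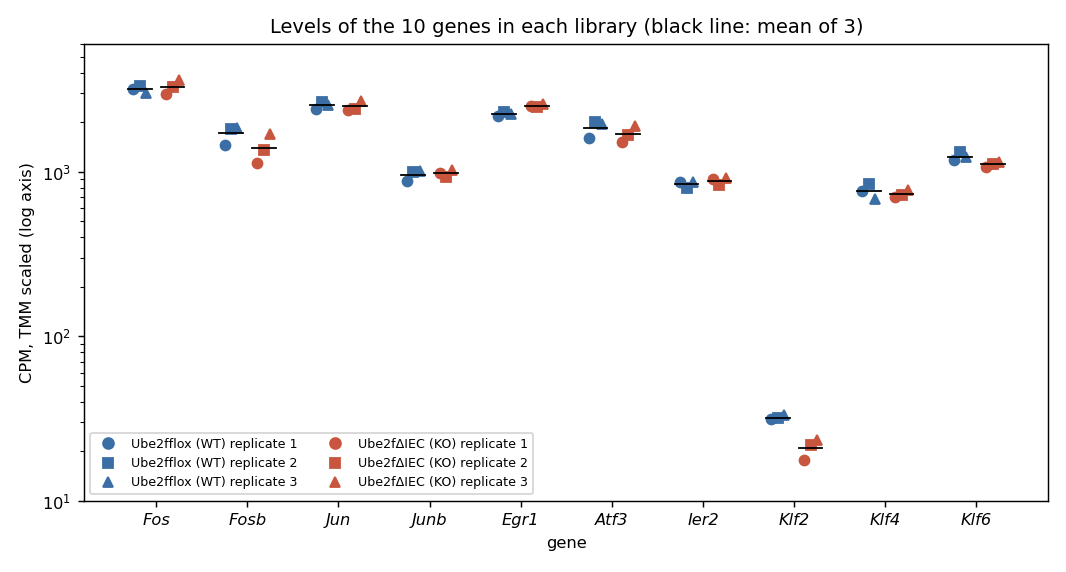
CPM (TMM scaled, log axis) of the 10 genes in each library, WT in blue and KO in red, with symbols for the replicates and a black line at the mean of 3. The 9 abundant genes lie between 684.2 and 3632.1 CPM with groups close together, and Klf2 lies at 17.7 to 33.1 CPM with its groups apart.

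On the FOS side of AP-1, Fos (GRCm38 chromosome 12, 85473890 to 85477273) was at 3190.2, 3320.2 and 3028.9 CPM in WT and at 2973.6, 3294.9 and 3632.1 CPM in KO. The groups overlapped, with both the lowest and the highest library in KO. The means were 3179.8 ± 145.9 CPM in WT and 3300.2 ± 329.3 CPM in KO (SD, n = 3 each), a log2 fold change of 0.05 with a 95% interval of -0.18 to 0.29 from the edgeR fit (SE 0.10, adjusted p = 0.922 in the edgeR quasi-likelihood test). Without KO replicate 3 the sign turned (-0.02). Fosb (chromosome 7, 19302696 to 19310051), the gene of a longer-lived relative of FOS, was at 1453.3, 1835.5 and 1853.7 CPM in WT and 1140.0, 1365.7 and 1693.0 CPM in KO. It was the most variable of the abundant members, 1.63 times higher in its highest than in its lowest library, and WT replicate 1 lay below KO replicate 3. Its log2 fold change was -0.29 (SE 0.16, 95% interval -0.66 to 0.07) and it did not pass (edgeR quasi-likelihood adjusted p = 0.680). Without KO replicate 1 it was -0.16. The ratio of Fosb to Fos counts, which needs no scaling between libraries, was 0.456, 0.553 and 0.612 in WT and 0.383, 0.414 and 0.466 in KO, so that KO replicate 3 lay just above WT replicate 1.

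On the JUN side, Jun (chromosome 4, 95049034 to 95052222), which has a single exon and encodes the main DNA-binding partner of FOS, was at 2407.9, 2654.4 and 2564.6 CPM in WT and 2395.9, 2424.7 and 2709.1 CPM in KO. The groups overlapped almost fully, and Jun had the log2 fold change nearest to 0 of the 10 genes (-0.02, SE 0.09, 95% interval -0.23 to 0.19). Its share of the counts of the 10 genes was 16.5% in both genotypes (SD 0.0392 in WT and 0.276 in KO, n = 3). Junb (chromosome 8, 84974484 to 84978718), a JUN relative that often restrains proliferation, was at 878.3, 992.5 and 1008.4 CPM in WT and 979.0, 936.3 and 1029.5 CPM in KO. These groups overlapped too, with a log2 fold change of 0.03 (SE 0.09, 95% interval -0.17 to 0.23). Prdx2 on the opposite strand overlaps Junb at a mean of 102.1 CPM, and Junos overlaps Jun at 1.29 CPM. Whether strand was used in counting is not stated, so reads of overlapping partners cannot be told apart. Atf3 (chromosome 1, 191170296 to 191218039), which pairs with JUN proteins and represses many stress genes, was at 1599.0, 2003.8 and 1968.3 CPM in WT and 1522.8, 1674.1 and 1915.2 CPM in KO. Replicate 1 was the lowest library in each genotype, and the log2 fold change was -0.12 (SE 0.12, 95% interval -0.41 to 0.16).

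Egr1 (chromosome 18, 34859823 to 34864984), a zinc-finger factor induced through the ERK pathway, was at 2180.3, 2299.8 and 2245.8 CPM in WT and 2503.5, 2475.5 and 2588.1 CPM in KO. Every KO library lay above every WT library, and the spread within each genotype was small (2242.0 ± 59.9 CPM in WT and 2522.4 ± 58.7 CPM in KO, SD, n = 3). The log2 fold change was 0.17 (SE 0.08, 95% interval -0.01 to 0.35) and did not pass (edgeR quasi-likelihood, Benjamini-Hochberg adjusted p = 0.635, and 0.232 to 0.929 over the alternatives). It was 0.33 with library totals and 0.18 without KO replicate 1. Within the counts of the 10 genes, which need no scaling, Egr1 took 14.6 ± 0.359% in WT and 16.7 ± 0.922% in KO (SD, n = 3 each), again without overlap. This share depends on the other members too. The count ratio of Egr1 to Fos was 0.683, 0.693 and 0.741 in WT and 0.842, 0.751 and 0.713 in KO, which overlapped. That of Egr1 to Jun was 0.866 to 0.905 in WT and 0.955 to 1.04 in KO, without overlap. Ier2 (chromosome 8, 84661331 to 84662852), a single-exon gene named for its rapid induction, was at 872.8, 803.5 and 873.8 CPM in WT and 907.2, 835.6 and 912.4 CPM in KO. Replicate 2 was the lowest of each genotype and lay apart from the other 2, the groups overlapped, and the log2 fold change was 0.06 (SE 0.08, 95% interval -0.13 to 0.24).

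**Figure D3:**
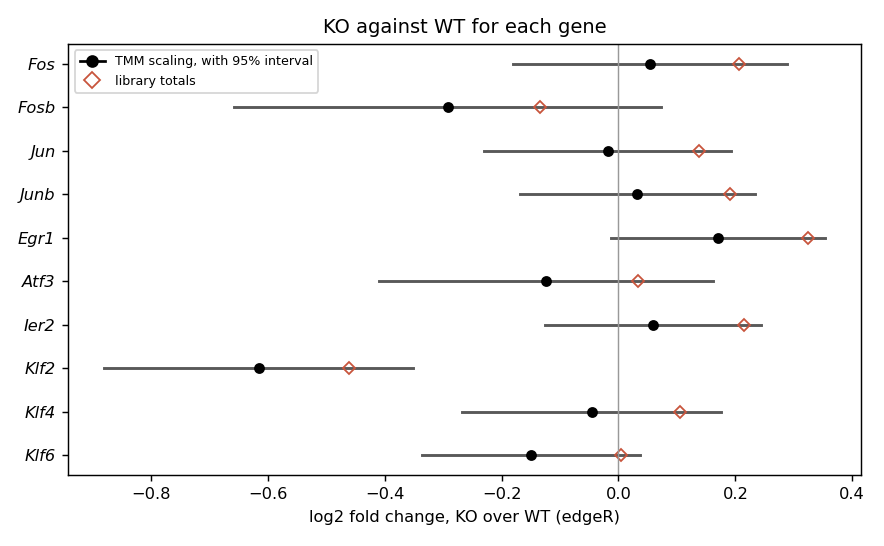
Log2 fold change, KO over WT, of each of the 10 genes from edgeR with TMM scaling (black dots, bars are 95% intervals of the fit) and with library totals (open red diamonds). The interval of Klf2, -0.88 to -0.35, is the one of the 10 that lies wholly on one side of 0, and library totals move every gene to the right.

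Among the KLF genes, Klf4 (chromosome 4, 55527143 to 55532466), a factor of differentiated gut epithelium, was at 760.7, 842.8 and 684.2 CPM in WT and 708.4, 726.5 and 780.9 CPM in KO. The KO values lay inside the range of WT, with a log2 fold change of -0.05 (SE 0.10, 95% interval -0.27 to 0.18). Summed goblet markers were meanwhile at 9857.3 to 11649.6 CPM in WT and 16799.5 to 17223.0 CPM in KO, and summed mature colonocyte markers at 11846.5 to 15586.7 against 10728.3 to 13334.7 CPM. The part of these cell type markers in the Klf4 values was not tested. Klf6 (chromosome 13, 5861482 to 5870394), an early-induced and broadly expressed KLF gene, was at 1173.9, 1314.2 and 1226.5 CPM in WT and 1078.8, 1123.0 and 1145.8 CPM in KO. The KO libraries lay below WT by a narrow gap, the log2 fold change was -0.15 (SE 0.08, 95% interval -0.34 to 0.04), and it did not pass (edgeR quasi-likelihood adjusted p = 0.680). In CPM that separation depended on the scaling. With library totals, or in the deposited FPKM, the Klf6 groups overlapped, and the log2 fold change was 0.01 with library totals. Within the counts of all members, which need no scaling, Klf6 took 7.92 to 8.16% in WT and 6.97 to 7.58% in KO. These shares did not overlap, and they depend on the other members too.

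Klf2 (chromosome 8, 72319033 to 72321656) was the least abundant of the 10 genes and showed the largest difference. It was at 31.3, 31.8 and 33.1 CPM in WT and 17.7, 21.8 and 23.3 CPM in KO, from 1053 to 2391 counts per library. The WT libraries were nearly equal (32.1 ± 0.908 CPM, SD, n = 3), the KO libraries were lower and more spread (20.9 ± 2.92 CPM), and the groups did not overlap. The log2 fold change was -0.62 (SE 0.11). By edgeR's quasi-likelihood test with Benjamini-Hochberg adjustment it did not pass over all genes (adjusted p = 0.186), while by DESeq2 it did (-0.62, SE 0.13, adjusted p = 0.000868), and over the edgeR alternatives the adjusted p ran from 0.0879 to 0.552. DESeq2 called it also without any single library (adjusted p = 0.000613 to 0.0272 over the 6 leave-outs). Without KO replicate 1, the library that goes against its sex label and the lowest for Klf2, the edgeR log2 fold change was -0.51. It was -0.46 with library totals, against a shift of all genes to 0.15. The count ratio of Klf2 to Klf6 was 0.0242 to 0.0269 in WT and 0.0164 to 0.0203 in KO, and that of Klf2 to Klf4 was 0.0378 to 0.0483 in WT and 0.0249 to 0.0300 in KO. Both ratios were lower in every KO library and need no scaling between libraries. The gene pairs set in ratio here and above were chosen after their values were seen.

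Since KLF2 is abundant in other cell types of the mucosa, their markers were read beside it. Of 14 endothelial markers listed, 12 were in the expression table. Of these 12, 4 passed the filter and 0 the test, and 11 had a mean under 1 CPM. Their summed level was 3.09 to 6.50 CPM in WT and 3.95 to 7.58 CPM in KO, which overlapped. Pecam1 was the highest of them at 1.75 to 4.12 CPM. Esam (0.614 to 1.42 CPM) and Egfl7 (0.263 to 0.81 CPM) were also above 0 in every library. Erg was at 0 in 5 of 6 libraries, and Cdh5 and Robo4 at 0 in 4. Of 20 T and innate lymphoid markers 20 were tested and 0 passed by edgeR or DESeq2, against 0.0447% and 1.65% of all genes. An unadjusted p under 0.05 was found for 3, against 8.18% of all genes. All 20 log2 fold changes were negative (median -0.65, but -0.137 without WT replicate 3 and -0.987 without WT replicate 1). Their summed level was 63.0, 105.1 and 193.8 CPM in WT and 73.4, 73.4 and 82.7 CPM in KO. Klf2 in the same libraries was at 31.3, 31.8 and 33.1 CPM in WT and 17.7, 21.8 and 23.3 CPM in KO. The part of these cells in the Klf2 values was not tested. The 6 lymphocyte homing genes, among them S1pr1, which KLF2 is known to induce in T cells, summed to 12.5, 16.8 and 37.0 CPM in WT and 15.1, 14.1 and 15.1 CPM in KO, with 0 past the test by edgeR or DESeq2 and 0 at an unadjusted p under 0.05. Myeloid markers summed to 42.4 to 61.0 CPM in WT and 43.6 to 47.2 CPM in KO. B and plasma cell markers summed to 10.8 to 35.9 against 16.7 to 18.8 CPM. Fibroblast and muscle markers summed to 11.0 to 15.8 against 12.6 to 14.0 CPM. In each of these lists 0 passed the test by edgeR or DESeq2 (13, 9 and 8 tested). An unadjusted p under 0.05 was found for 2, 0 and 1 of them, against 8.18% of all genes.

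**Figure D4:**
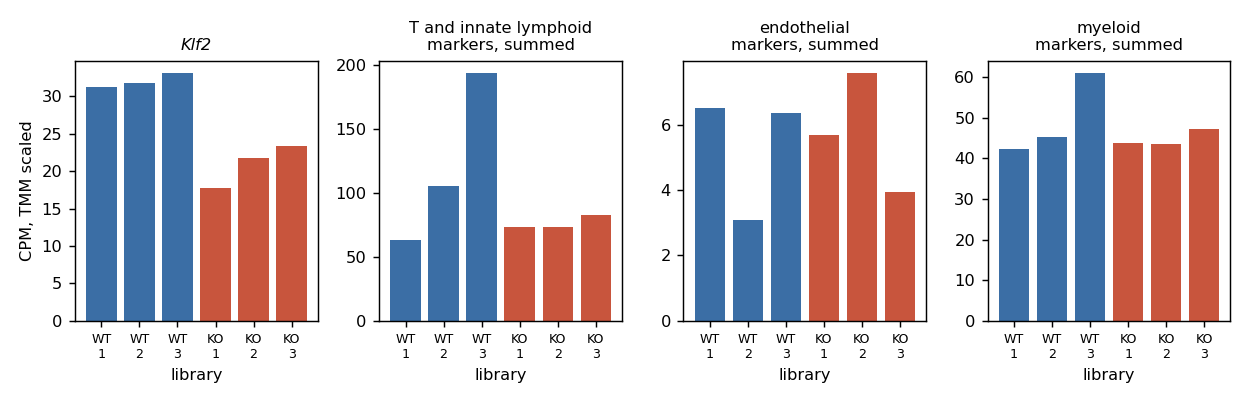
CPM of Klf2 and summed CPM of T and innate lymphoid, endothelial and myeloid markers in each library, WT in blue and KO in red, each panel with its own axis from 0. The Klf2 bars are near equal in WT and lower in KO, while the T cell bars reach 193.8 CPM in one WT library and the endothelial bars overlap between genotypes.

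The 10 genes were compared library by library around the mean of each gene. KO replicate 3 was the highest KO library for 10 of 10 genes and the highest of all 6 libraries for 5, while KO replicate 1 was the lowest KO library for 7 and the lowest of all 6 for 6. Fosb, Atf3 and, by smaller amounts, Jun shared an order in which WT replicates 2 and 3 and KO replicate 3 were above the mean and the other 3 libraries below. Egr1 did not share it, since its 3 WT libraries were below the mean (-0.12, -0.05 and -0.08 on the log2 scale) and its 3 KO libraries above (0.07, 0.06 and 0.12). The mean profile of the 7 immediate early genes ran from -0.10 in KO replicate 1 to 0.12 in KO replicate 3. It was compared with 12116 other genes that had a mean of at least 1 CPM and a symbol other than a gene model (Gm or Rik). The nearest to this profile were Arl4a, Panx1, Kat6a, Prr14 and Bicral. Their root mean square differences from it were 0.0196 to 0.0293 on the log2 scale over the 6 libraries. The profile is nearly flat, so any gene with little change would also lie near it. The nearest to Klf2 were Fmo5 (0.0598), Klhdc1 (0.0764), Fhdc1 (0.0850), Fam78a (0.0927) and Metrnl (0.113). Genes picked as the nearest of so many lie close by selection, and a shared regulation was not tested.

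**Figure D5:**
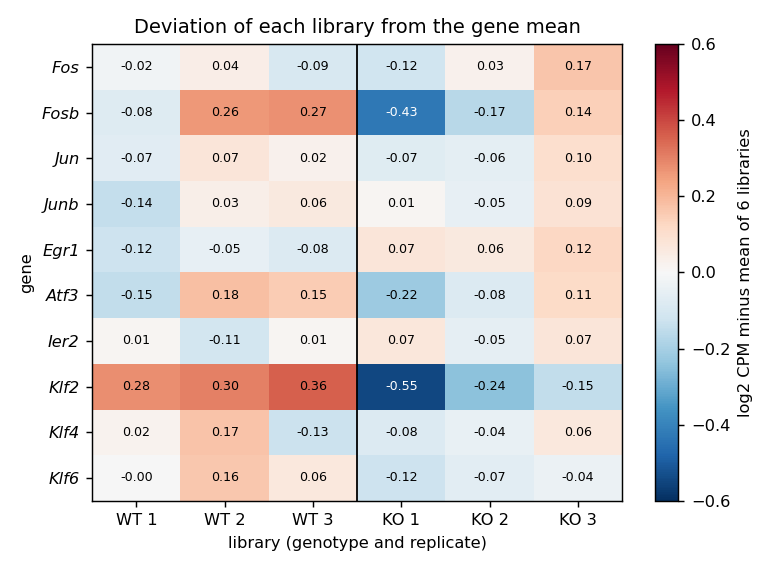
Log2 CPM of each gene in each library minus its mean over the 6 libraries, with red above and blue below the mean, and a line between WT and KO. Klf2 is above the mean in all WT libraries and below in all KO libraries, Egr1 the reverse by a smaller amount, and the KO replicate 3 column is positive for 8 of the 10 genes.

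Heat shock genes, which respond to protein damage and to warming of isolated cells, were read beside the members. Of 26 tested, 0 passed by edgeR or DESeq2, against 0.0447% and 1.65% of all genes, and 0 had an unadjusted p under 0.05, against 8.18%. Of the log2 fold changes 21 were negative (median -0.14, or 0.01 with library totals, -0.0182 without KO replicate 1 and -0.324 without KO replicate 3). Their summed level was 12677.1, 14247.5 and 12574.8 CPM in WT and 9819.1, 10933.7 and 14148.4 CPM in KO, so that KO replicate 3 stood high and KO replicate 1 low among the KO libraries here as well. The inducible chaperone gene Hspa1a was at 280.0, 772.5 and 404.6 CPM in WT and 236.8, 173.6 and 426.2 CPM in KO (log2 fold change -0.80, SE 0.41). The log2 fold change of its near-identical copy Hspa1b was close to this (-0.74, SE 0.40), and reads of the copies could be split between them. Without WT replicate 2 the log2 fold changes of Hspa1a and Hspa1b were -0.295 and -0.287, and without KO replicate 3 both were -1.24. Neither gene passed, and the groups overlapped for both. The constitutive chaperone gene Hspa8 (-0.10, SE 0.17) did not pass either, and it turned positive with library totals. How far cell release set the levels of the immediate early genes was not tested, since no cells spared the release were analysed here.

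The other immediate early genes ranged from abundant to near 0 and did not pass. Of 51 tested, 0 passed in either direction by edgeR. An unadjusted p under 0.05 was found for 7 of them, against 8.18% of all genes, and DESeq2 called 2, against 1.65%. Of their log2 fold changes 21 were positive and 30 negative (median -0.05, or 0.11 with library totals, and -0.137 to 0.005 when 1 library was left out). The 2 with the highest CPM were Zfp36, whose product destabilises AU-rich messages (306.2 FPKM, log2 fold change -0.03, SE 0.11), and the antiproliferative gene Btg2 (320.5 FPKM, -0.12, SE 0.12). Those of smallest p were the DNA damage-inducible Gadd45a, at 92.2, 79.9 and 69.8 CPM in WT and 58.5, 52.7 and 60.2 CPM in KO (-0.50, SE 0.11), and the small GTPase gene Rhob, at 415.9, 445.7 and 408.3 CPM in WT and 341.9, 341.8 and 364.3 CPM in KO (-0.28, SE 0.07). In both, each KO library lay below each WT library, and both were the genes that DESeq2 called. The nuclear receptor Nr4a1 (0.26, SE 0.16) and the MAP kinase phosphatase Dusp1 (0.06, SE 0.15) had overlapping groups.

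Relatives of the members were read after their values were seen. The other EGR genes had positive log2 fold changes like Egr1. Egr2 was at 111.5, 128.1 and 161.2 CPM in WT and 175.4, 174.1 and 220.3 CPM in KO, without overlap (0.51, SE 0.15), and it did not pass (edgeR quasi-likelihood, Benjamini-Hochberg adjusted p = 0.441, and 0.0666 to 0.799 over the alternatives). Egr3 (0.47, SE 0.23) and Egr4 (0.24, SE 0.30) had overlapping groups, and Egr4 turned negative without WT replicate 2 (-0.01). The phosphatase gene Dusp4, an ERK-induced inhibitor of ERK, was at 22.6, 19.4 and 22.5 CPM in WT and 28.8, 25.3 and 27.5 CPM in KO (0.34, SE 0.10), also without passing. Of the other DUSP genes read, Dusp2 (-0.779), Dusp5 (-0.032), Dusp6 (-0.135) and Dusp10 (-0.387) had negative log2 fold changes, and Dusp1 a positive one (0.061). Of the AP-1 relatives, Jund was at 740.1, 745.2 and 805.9 CPM in WT and 642.0, 636.9 and 691.4 CPM in KO (-0.22, SE 0.08). Fosl1 (0.30, SE 0.15) and Fosl2 (0.01, SE 0.13) overlapped between genotypes. None of these passed.

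The remaining KLF and SP genes lay at lower levels than Klf4 and Klf6. Of 17 tested, 0 passed by edgeR or DESeq2, against 0.0447% and 1.65% of all genes, and 1 had an unadjusted p under 0.05, against 8.18%. Of the log2 fold changes 14 were positive and 3 negative (median 0.10, or 0.25 with library totals). In CPM, 4 of the 17 lay above WT in every KO library, against 7.26% of all genes, and 0 below. Klf11 had the smallest p, with 68.4, 71.3 and 71.1 CPM in WT and 81.1, 83.2 and 83.2 CPM in KO (0.23, SE 0.06). Klf5, a factor of dividing crypt cells, was at 404.9, 411.5 and 357.4 CPM in WT and 456.6, 423.6 and 426.1 CPM in KO (0.15, SE 0.08), while summed proliferation markers were at 584.2 to 926.6 CPM in WT and 863.9 to 1012.3 CPM in KO. Klf10 (0.17, SE 0.08) and Klf3 (0.07, SE 0.09) did not pass. The negative value of Klf2 stood beside 14 positive values among these 17 genes, while Klf4 (-0.05) and Klf6 (-0.15) were negative too.

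The known inducers of immediate early genes did not pass either. The upstream list holds serum response factor and its partners, CREB and ATF factors, MEF2 factors and MAP kinases. Of 33 tested, 0 passed by edgeR or DESeq2, against 0.0447% and 1.65% of all genes, and 0 had an unadjusted p under 0.05, against 8.18%. Of the log2 fold changes 17 were positive and 16 negative (median 0.01, or 0.15 with library totals). The summed level was 2604.7 to 2692.7 CPM in WT and 2623.6 to 2657.0 CPM in KO. Elk1, a ternary complex factor, was at 2.63 to 4.04 CPM in WT and 4.43 to 5.85 CPM in KO (0.49, SE 0.23). The EGF receptor gene Egfr was at -0.17 (SE 0.08), and the ERK gene Mapk3 (-0.01, SE 0.08) and the ERK-activated kinase gene Rps6ka1 (0.01, SE 0.08) were near 0. These kinases act through phosphorylation, which RNA does not measure.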

How the data were processed

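The authors deposited 1 table with whole-number read counts and with FPKM values for each gene in 6 libraries, as its header names them. The submitters' processing notes name mm10 and, with no roles or order, the tools StringTie 2.1.6, HISAT2 2.2.1, edgeR, DESeq2 and cutadapt 1.9. No source used here states how counts were derived or whether reads with several matches were counted. For 0 of the 10 genes did the table's position equal that of GENCODE M21 (GRCm38), so printed positions are those of GENCODE, by gene ID.

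All columns were used (0 other sample columns). Genes were kept by filterByExpr, scaled by TMM and tested 2-sided with the quasi-likelihood test of edgeR 4.0.16 in R 4.3.3, with Benjamini-Hochberg adjustment over 17900 genes, threshold 0.05, with genotype alone in the model. DESeq2 1.42.0, other scalings, no filter, leave-outs and a block were alternatives. No 2 replicates agreed within sampling noise, with a chi-square of 27.4 to 196.1 per degree of freedom. With 3 against 3 an exact permutation test cannot go below p = 0.1. The floor of 3 counts was 0.0376 to 0.0529 CPM and covers counting error only. The steps were tested on simulated counts. The labels name separate mice and no litters.

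The members and lists were chosen with earlier results of these data known. All 10 members are named, and of the other lists those called or, with none, the 2 of smallest p and the 2 of highest CPM (1 gene this rule names is not reported here). Cell type lists are given here by counts and summed levels. Over 17900 genes, the epithelial (12), mature colonocyte (13), goblet (14) and proliferation (18 tested) lists had 0 called members by edgeR (0, 4, 8 and 9 at an unadjusted p under 0.05, against 8.18% of all genes, and 0, 2, 4 and 5 by DESeq2, against 1.65%) and medians of -0.07, -0.16, 0.26 and 0.46.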

Additional observations from a re-analysis of the deposited data

How the results depend on the processing

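Over the 10 genes and 11 alternatives, 98 of 110 log2 fold changes kept their sign and their side of the threshold, 11 turned sign and 1, Klf2 by DESeq2, newly passed. The count of members called was 0 in each edgeR alternative and 1 by DESeq2, lower in KO. DESeq2 called 255 genes in all (119 higher, 136 lower in KO), and library totals 18 (13 higher). Without one library each, edgeR called 0 to 90 genes (0 to 39 higher, 0 to 51 lower), with 0 without KO replicate 1, WT replicate 2 or KO replicate 3 (1129, 1240 and 1127 at an unadjusted p under 0.05, and 179, 213 and 173 by DESeq2) and 90 without WT replicate 1. The causes were not tested.

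With library totals, signs turned for Atf3 (0.0336), Jun (0.137), Klf4 (0.105), Klf6 (0.0051), Zfp36 (0.125), Btg2 (0.0419), Hspa8 (0.0519) and Mapk3 (0.146), when all genes shifted by 0.15. Leaving out one library moved log2 fold changes across 0 for Fos (-0.021 to 0.123), Jun (-0.0771 to 0.0139), Junb (-0.0313 to 0.0672), Klf4 (-0.121 to 0.0311), Dusp1 (-0.10 to 0.195), Egr4 (-0.006 to 0.586), Fosl2 (-0.132 to 0.129), Hspa8 (-0.305 to 0.0623), Mapk3 (-0.046 to 0.0335), Rps6ka1 (-0.0352 to 0.0691) and Zfp36 (-0.11 to 0.0698). Klf2 stayed negative at -0.70 to -0.51. In library totals and in FPKM, an alternative chosen after seeing the data, Egr1, Jun, Junb and Ier2 (4 genes) lay above WT in every KO library, against 20.3 and 20.2% of all genes, and 1, Klf2, below, against 2.2 and 2.12%.

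Deviations of same-numbered libraries correlated at 0.0813, -0.0147 and 0.0827, and those of differently numbered ones at -0.109 to 0.0375. All were small, though 0.0813 and 0.0827 were the highest of all, so these values do not settle whether the numbers mark pairs. The labels name no pairs, and the main fit took none. The replicate block gave 10 genes called, 0 members, and an adjusted p of 0.161 for Klf2 (edgeR quasi-likelihood, log2 fold change -0.63), and it changed no other call among the 10. Depth does not limit the 9 abundant members, with at least 38817 counts each. The number of mice, 3 per genotype, limits the precision, and the printed intervals are not adjusted for the number of genes.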

Other observations

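Arc, an immediate early gene best known from neurons, was at 115.3 to 175.9 CPM in these epithelial cells (44.3 FPKM). Of the paired matricellular genes Ccn1 and Ccn2, often induced together, Ccn1 was at 285.7 to 446.6 CPM (165.7 FPKM) and Ccn2 at 0 to 0.335 CPM.

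Gapdh, a glycolytic gene with many processed pseudogenes, was at 19.9 to 43.7 CPM, against 2602.4 to 3218.5 CPM of Actb, and the small heat shock gene Hspb1 at 0.536 to 3.85 CPM. Whether reads with several matches were left out of such genes was not tested.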
